A study of Mus musculus with 6 samples.

Results

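The receptors and enzymes at the head of cAMP signalling in the heart were examined, as 9 genes that encode adrenergic receptors (*Adrb1*, *Adra1a*, *Adra1b*), adenosine receptors (*Adora1*, *Adora2b*) and adenylyl cyclases (*Adcy5*, *Adcy6*, *Adcy7*, *Adcy9*). They were found by gene symbol in the annotation of the array, and are 9 of the 27307 genes with a symbol on the array. The array carries 13 probes for them among 56605 probes that are not controls. Of these 13 probes, 9 were bright enough to be tested, 1 for each gene.

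RNA was taken from the myocardium of male C57BL/6J mice lacking *Clk4* in cardiomyocytes (*Clk4*-cKO), and each of 6 hearts was hybridised to 1 Agilent mouse array with 1 dye. The NEXN-WT group (3 hearts) had received an adeno-associated virus (AAV) carrying wild-type nexilin, an actin-binding protein of the Z-disc. The NEXN-S437E group (3 hearts) had received the same kind of virus with the S437E form of nexilin, in which a serine is exchanged for glutamate, a substitution that imitates the phosphorylated residue. The comparison asks how cardiac transcripts differ between *Clk4*-deficient hearts that carry the phosphomimetic form and those that carry the unmodified form.

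No other difference between the groups is stated in the labels or methods. *Clk4* fl/fl mice carried α-MHC-MerCreMer, a Cre that is driven by a cardiomyocyte promoter and works only after tamoxifen, so other cells of the heart keep *Clk4*. The virus was of serotype 9 and was injected into a vein, with a CMV promoter, which is not limited to cardiomyocytes, and GFP co-expressed as a separate reporter. No heart with intact *Clk4* and no uninjected heart was compared here. By the methods, mice received virus at 5 weeks of age, and tamoxifen was begun at 6 to 8 weeks with hearts studied 3 weeks later, although the age of the hearts on these arrays is not stated separately.

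Noradrenaline and adrenaline act on the cardiomyocyte through β-adrenergic receptors, which couple to the stimulatory G protein and so to adenylyl cyclase, the enzyme that makes cAMP. The cAMP formed activates protein kinase A, which phosphorylates calcium-handling and sarcomere proteins and raises the rate and force of contraction. The α1-adrenergic receptors couple instead to Gq and phospholipase C, whereas adenosine restrains cAMP formation through its A1 receptor and raises it through its A2 receptors.

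Values are log2 signals relative to the 75th percentile of the same array, so 0 is the signal at that percentile. The level of one probe cannot be set against that of another, because probes differ in how well they bind. A probe is here called higher or lower when the groups differ by at least 2-fold with an unadjusted limma p below 0.05, the thresholds that the study used. The stricter call is a Benjamini-Hochberg adjusted p below 0.05 over all 22998 tested probes.

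One array needs mention before the results, since it touches most members. NEXN-WT replicate 1 differed from the other NEXN-WT arrays by a mean of 0.38 and 0.44 on the log2 scale over the tested probes, and from the NEXN-S437E arrays by 0.50 to 0.56. The other NEXN-WT pair differed by 0.25, and NEXN-S437E arrays differed among themselves by 0.19 to 0.29. For 8 of the 9 members the NEXN-WT replicate 1 value lay below the mean of replicates 2 and 3, and for 1 member, *Adcy7*, it lay above both. The same array had the lowest summed signal of the 8 cardiomyocyte markers (1923, against 2530 to 2531 in the other NEXN-WT hearts and 2973 to 3138 with NEXN-S437E, in units of the percentile signal), and the highest summed signal of the 7 fibroblast markers. All 8 cardiomyocyte markers were bright enough to be tested. The percentile signal that serves as the unit was itself highest on NEXN-WT replicate 1, at 273 intensity units against 110 to 175 on the other arrays. In intensity units, before this scaling, none of the cardiomyocyte markers was lowest on that array. The part of the scaling in the low cardiomyocyte sum was not tested. NEXN-S437E replicate 1 had the highest summed signal of the 4 erythrocyte markers (362, against 34.1 to 130 in the other hearts). Each member is therefore given with and without NEXN-WT replicate 1, and so are pathway genes whose call it decides.

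Of the 9 member probes, 1 was higher with NEXN-S437E (*Adora2b*) and 1 was lower (*Adcy7*) at 2-fold and an unadjusted p below 0.05. Among all tested probes 0.735% were higher and 1.78% were lower by the same rule. No member passed the adjusted p, which 0.161% of tested probes did. *Adra1a* entered the test through the NEXN-S437E group alone, in which it is higher, so it is described but not counted here. Among the 8 member probes well above background on all 6 arrays, 1 was higher (*Adora2b*) and 1 lower (*Adcy7*) at the unadjusted p alone, against 10.6% and 5.62% of the 21110 probes of that kind. The same pair had groups that did not overlap, where 19.5% of the 21110 probes did not overlap in the higher direction and 8.39% in the lower. Of these 8 differences 7 were above 0, as were 62.9% of the 21110, with a median of 0.23 on the log2 scale beside 0.10. Without NEXN-WT replicate 1, 5 were above 0, as were 60.1% of those probes, with a median of 0.064 beside 0.057, and *Adora2b* was the 1 member still past 2-fold. With 3 hearts against 3, the exact permutation test of a single probe cannot give a p below 0.1.

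**Figure D1:**
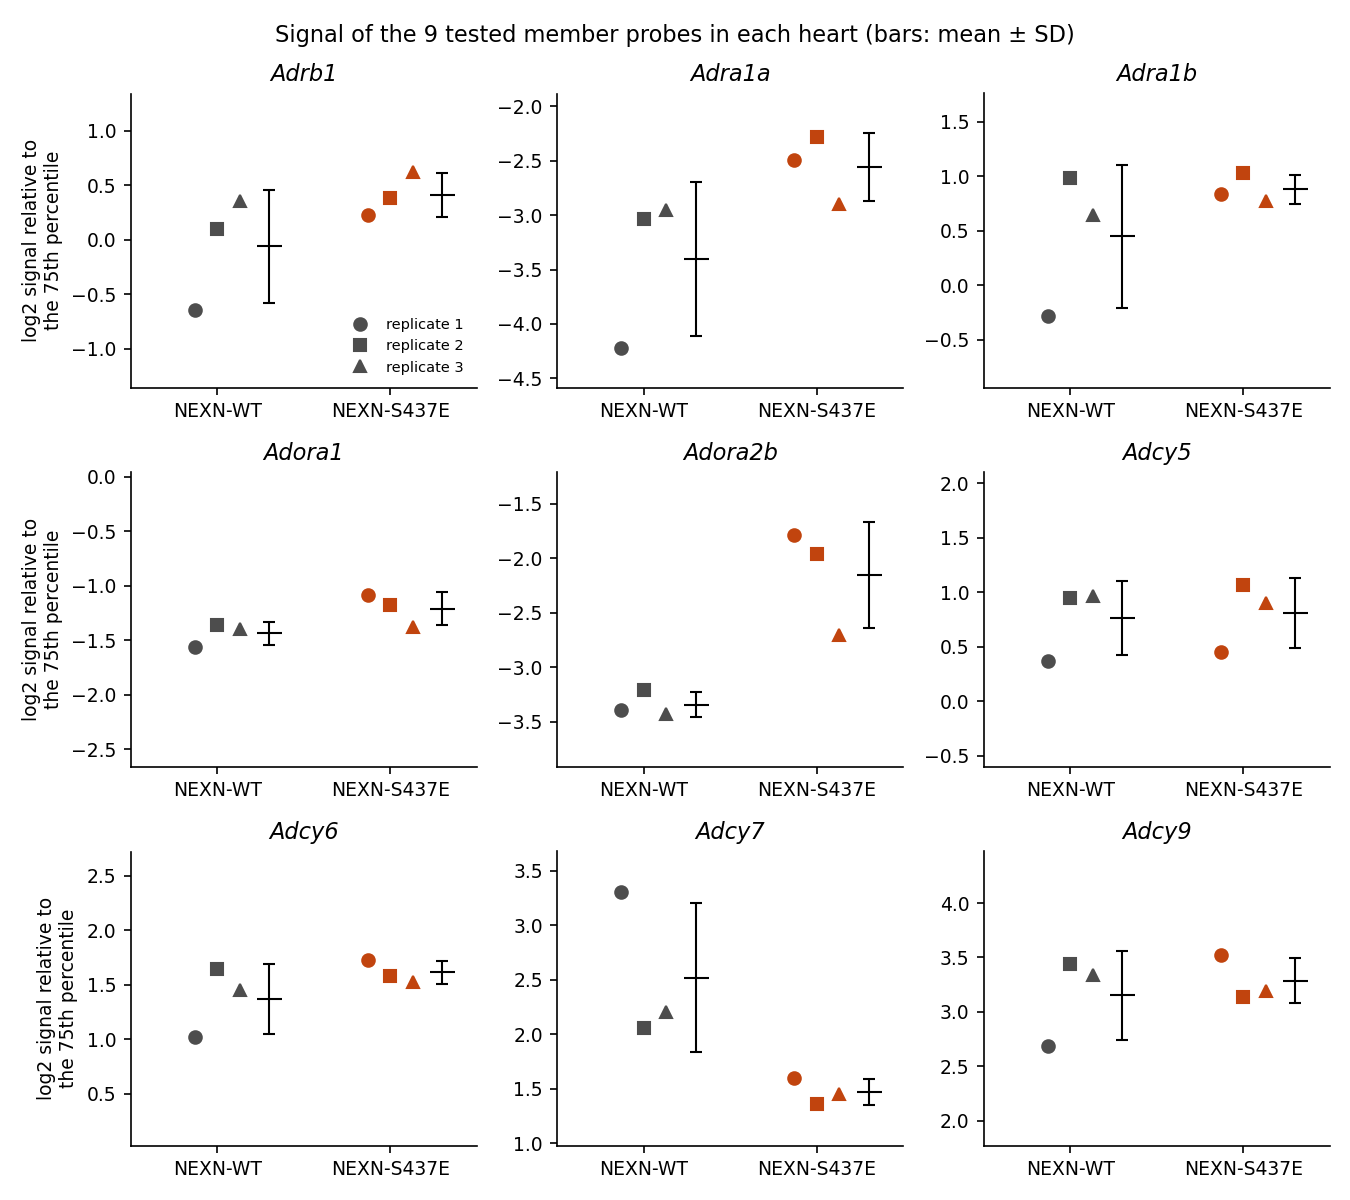
Log2 signal of the tested probe of each of the 9 genes, relative to the 75th percentile of the array, in the 3 NEXN-WT hearts (grey) and the 3 NEXN-S437E hearts (orange), with the mean and SD as a bar beside each group; every panel spans the same range on the vertical axis. The groups are apart for *Adora2b* and *Adcy7*, and by a small margin for *Adra1a*, which was not well above background on NEXN-WT replicate 1. Of all probes well above background on all 6 arrays, 19.5% are apart in the higher direction and 8.39% in the lower. The circle of NEXN-WT replicate 1 lies away from the other NEXN-WT points for most genes.

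The adenosine receptors were represented by 4 probes, and 2 of them are printed to show how far oligonucleotides for the A1 and A2B receptor genes differ. The first is the *Adora2b* probe on which the largest increase among the members rests (mm9 chr11:62079096-62079155, plus strand), and the second is an *Adora1* probe that was too dim to be tested (mm9 chr1:136099564-136099623, minus strand). Both are 60 bases long and read through without a stop codon in at least 1 frame. Capitals mark the longest stretch that they share, which is 7 bases.
Adora2b: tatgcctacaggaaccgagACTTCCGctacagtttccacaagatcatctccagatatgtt
Adora1: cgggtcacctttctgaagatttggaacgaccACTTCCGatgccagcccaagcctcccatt
The longest stretch that any of the 13 member probes shares with a probe of another member is 8 bases.

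*Adora2b* encodes the A2B receptor, a low-affinity adenosine receptor that stimulates cAMP formation and is known for its induction by hypoxia. The probe printed above read -3.40, -3.21 and -3.43 in the NEXN-WT hearts and -1.79, -1.96 and -2.70 in the NEXN-S437E hearts. Every NEXN-S437E heart was above every NEXN-WT heart, and the NEXN-WT hearts lay close together (mean -3.34 ± 0.12 SD, n = 3) while the NEXN-S437E hearts spread more widely (-2.15 ± 0.49 SD, n = 3). The difference was 1.19 ± 0.24 (SE) on the log2 scale, a 2.29-fold higher signal, with a 95% interval from 0.63 to 1.75. The limma p was 0.00116 unadjusted and 0.109 after adjustment.

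The *Adora2b* difference did not rest on the array that stands apart: it was 1.17 without NEXN-WT replicate 1, with a limma adjusted p of 0.177, and 1.01 without NEXN-S437E replicate 1. Within slide row 1, where the comparison is of 1 NEXN-S437E heart (replicate 1) with the 3 NEXN-WT hearts, it was 1.56. In the normalized values that the authors deposited, the hearts read 3.97, 4.13 and 4.02 with NEXN-WT and 5.55, 5.38 and 4.61 with NEXN-S437E, a difference of 1.14. The signal was dim, at 14.3 to 25.9 intensity units with NEXN-WT and 21.8 to 40.9 with NEXN-S437E. The probe was well above background on all 6 arrays, but its NEXN-WT values lay near the lowest such signal on each array. Those lowest signals were -4.00, -3.56 and -3.55 in NEXN-WT replicates 1, 2 and 3, so the size of the difference is uncertain. Under normexp background correction, which draws dim signals together, the difference was 0.51 and no longer 2-fold.

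*Adora1* encodes the A1 receptor, which couples to inhibitory G proteins, slows the sinus node and opposes β-adrenergic stimulation. Its tested probe (mm9 chr1:136095833-136095892, minus strand) read -1.56, -1.35 and -1.39 with NEXN-WT and -1.08, -1.17 and -1.38 with NEXN-S437E. The groups overlapped, by 1 NEXN-S437E heart that lay between NEXN-WT replicates 2 and 3. The difference was 0.22 ± 0.15 (SE), with a 95% interval from -0.12 to 0.57 and a limma adjusted p of 0.448, so a 2-fold difference at this probe lies outside the interval. Without NEXN-WT replicate 1 it was 0.16. The *Adora1* probe printed above was well above background on 1 array, NEXN-S437E replicate 1, and the last *Adora1* probe on none, so neither was tested. The difference between the changes of the A1 and A2B receptor genes was not tested.

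*Adrb1* encodes the β1-adrenergic receptor, the main β receptor of cardiomyocytes. Its probe (mm9 chr19:56799215-56799274, plus strand) read -0.64, 0.10 and 0.36 with NEXN-WT and 0.23, 0.38 and 0.63 with NEXN-S437E. NEXN-WT replicate 1 was the lowest heart and the remaining 5 overlapped. The difference was 0.47 ± 0.26 (SE), with a 95% interval from -0.13 to 1.07 and a limma adjusted p of 0.378. Without NEXN-WT replicate 1 it was 0.18.

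*Adra1a* encodes the α1A-adrenergic receptor, 1 of the Gq-coupled receptors through which catecholamines act on cardiomyocytes. Its tested probe (mm9 chr14:67346728-67346787, plus strand) read -4.22, -3.04 and -2.95 with NEXN-WT and -2.50, -2.28 and -2.90 with NEXN-S437E. All NEXN-S437E hearts were higher, but the closest pair differed by less than the spread within either group, and the probe was not well above background on NEXN-WT replicate 1. The measured difference was 0.84 (limma adjusted p = 0.267), and since it includes a signal at background in NEXN-WT replicate 1 its size is uncertain. Without that array it was 0.43 (limma adjusted p = 0.396), and in the deposited values the groups overlapped, with a difference of 0.74. A second *Adra1a* probe (mm9 chr14:67256105-67256164) did not rise well above background in any heart.

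*Adra1b* encodes the α1B-adrenergic receptor, the other main α1 subtype of the rodent heart. Its probe (mm9 chr11:43588814-43588873, minus strand) read -0.29, 0.98 and 0.65 with NEXN-WT and 0.84, 1.03 and 0.77 with NEXN-S437E. NEXN-WT replicate 1 was low and the other 5 hearts overlapped. The difference was 0.43 ± 0.30 (SE; 95% interval -0.27 to 1.13, limma adjusted p = 0.469), and it was 0.065 without NEXN-WT replicate 1.

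**Figure D2:**
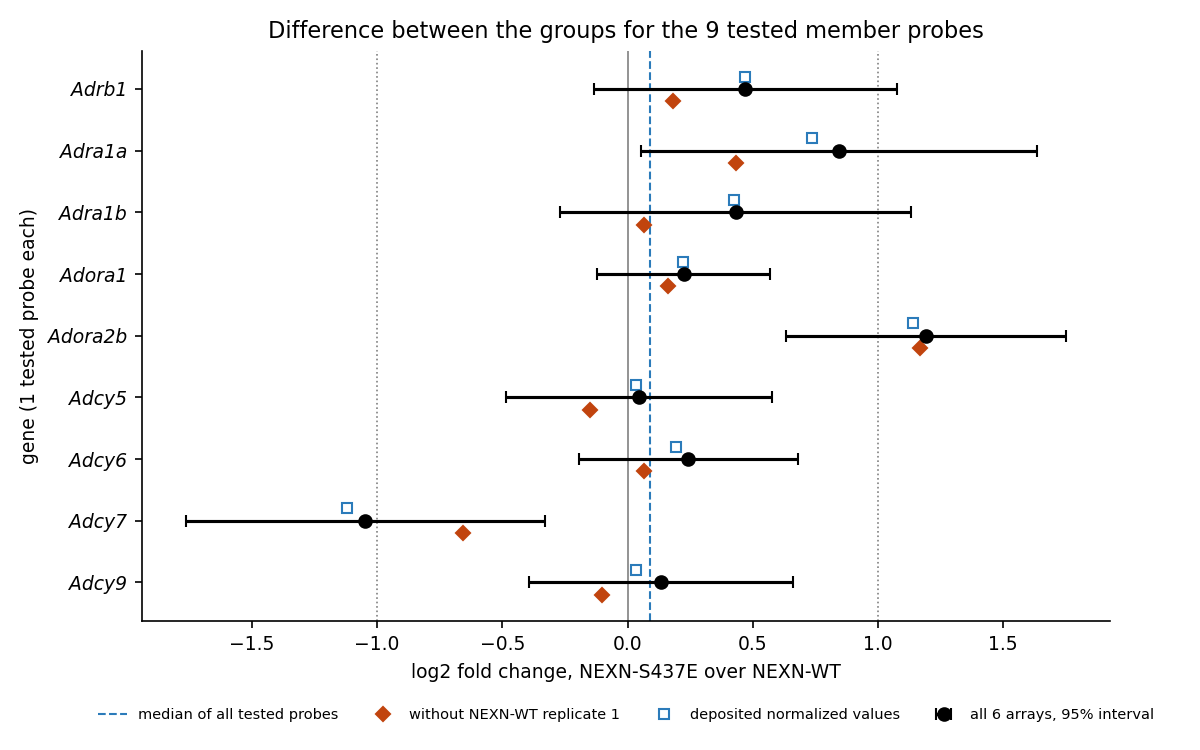
Difference between the groups (NEXN-S437E over NEXN-WT, log2) for the 9 tested probes, with 95% intervals from limma over all 6 arrays (black), the estimate without NEXN-WT replicate 1 (orange diamonds) and the estimate from the deposited normalized values (open blue squares); dotted lines mark 2-fold and the dashed line the median of all tested probes, 0.088. *Adora2b* stays near 1.2 in all of them, whereas *Adcy7* moves from -1.05 to -0.66, and *Adrb1*, *Adra1a* and *Adra1b* move toward 0, without NEXN-WT replicate 1.

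Among the cyclases, *Adcy7* encodes an isoform that is abundant in blood and immune cells. Its probe (mm9 chr8:90853657-90853716, plus strand) read 3.30, 2.05 and 2.20 with NEXN-WT and 1.60, 1.36 and 1.46 with NEXN-S437E. Every NEXN-S437E heart was below every NEXN-WT heart, and the NEXN-S437E hearts lay close together (1.47 ± 0.12 SD, n = 3) while NEXN-WT replicate 1 raised the mean and spread of its group (2.52 ± 0.68 SD, n = 3). The *Adcy7* difference was -1.05 ± 0.31 (SE) on the log2 scale, a 2.07-fold lower signal, with a 95% interval from -1.76 to -0.33. The limma p was 0.00991 unadjusted and 0.189 after adjustment.

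Without NEXN-WT replicate 1 the *Adcy7* difference was -0.66 and no longer 2-fold, with an unadjusted limma p of 0.00245 and an adjusted limma p of 0.133. Within slide row 1, again 1 NEXN-S437E heart against 3, it was -0.92, with an unadjusted limma p of 0.0948 that assumes the lone heart varies like the others. In the deposited values it was -1.12. The probe was bright, at 334 to 2690 intensity units, and far from background.

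Like *Adcy7*, the summed signal of fibroblast markers was highest in NEXN-WT replicate 1 and lower in every NEXN-S437E heart than in any NEXN-WT heart. The leukocyte, T and NK cell and macrophage sums did not share both features. In bulk tissue fewer cells of a type and less RNA per cell cannot be told apart. On a linear scale, in units of the percentile signal, the summed signal of the 7 fibroblast markers was 1019, 632 and 680 with NEXN-WT and 475, 450 and 485 with NEXN-S437E, and 6 of the 7 were lower at an unadjusted limma p below 0.05 (5 without NEXN-WT replicate 1). The 4 general leukocyte markers summed to 16.4, 9.96 and 14.3 against 10.2, 10.4 and 8.38, with 1 of the 4 lower (0 without NEXN-WT replicate 1). Of 4 B cell markers 1 was tested, and it was lower at an unadjusted limma p below 0.05. Its difference was -0.61, and -0.51 without NEXN-WT replicate 1. The 7 T and NK cell markers summed to 6.23, 11.7 and 11.2 against 2.27, 1.77 and 1.74, and unlike *Adcy7* their sum was lowest among the NEXN-WT hearts in replicate 1. Of these markers 6 were well above background on all 6 arrays, and those 6 were lower by unadjusted limma p. Over all 7, 5 were lower at an adjusted limma p below 0.05, a call that 0.161% of all tested probes passed. *Cd3g*, 1 of the 5, entered the test through the NEXN-WT group alone. The 8 macrophage markers summed to 197 to 258 against 228 to 245, with none called in either direction. The part of these cells in the *Adcy7* difference was not tested.

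**Figure D3:**
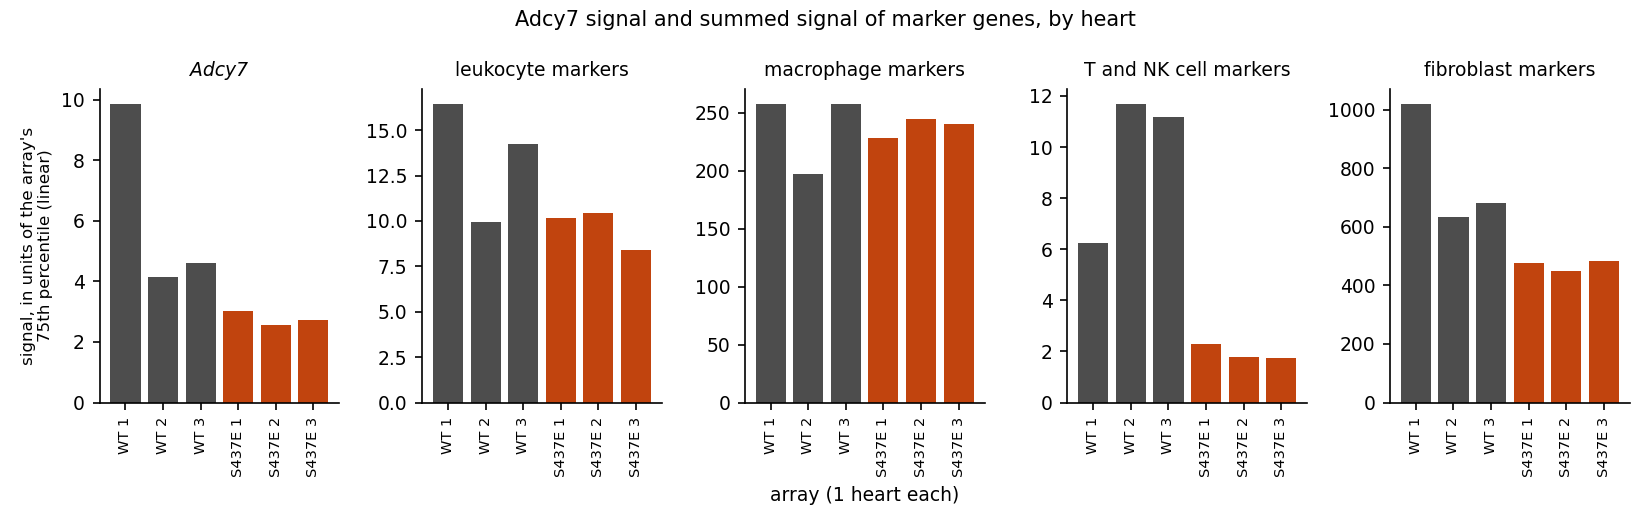
Signal of *Adcy7* and summed signals of leukocyte, macrophage, T and NK cell and fibroblast marker genes in each heart, as linear values in units of the 75th percentile signal of the array (vertical axes from 0, scaled separately; grey NEXN-WT, orange NEXN-S437E). *Adcy7* and the fibroblast sum are highest in NEXN-WT replicate 1 (the fibroblast sum reaching 1019) and lowest in the NEXN-S437E hearts, while the macrophage sum stays between 197 and 258 in all 6 hearts.

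*Adcy5* and *Adcy6* encode the main cyclases of cardiomyocytes, both inhibited by calcium. The *Adcy5* probe (mm9 chr16:35304398-35304457, plus strand) read 0.37, 0.95 and 0.97 with NEXN-WT and 0.45, 1.07 and 0.90 with NEXN-S437E. The low heart of each group was its replicate 1 and the groups overlapped throughout. The difference was 0.046 ± 0.23 (SE; 95% interval -0.49 to 0.58, limma adjusted p = 0.928), and its sign turned under another scaling and without single arrays, to -0.15 without NEXN-WT replicate 1.

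The tested *Adcy6* probe read 1.02, 1.65 and 1.45 with NEXN-WT and 1.73, 1.58 and 1.53 with NEXN-S437E. The groups overlapped, with NEXN-WT replicate 1 the lowest. The difference was 0.24 ± 0.19 (SE; 95% interval -0.20 to 0.68, limma adjusted p = 0.514), and 0.064 without NEXN-WT replicate 1. The annotation places 15 bases of this probe (mm9 chr15:98420404-98420418, minus strand), and a second *Adcy6* probe (mm9 chr15:98421800-98421859) did not rise well above background in any heart.

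*Adcy9* encodes a widely expressed cyclase that responds weakly to forskolin. Its probe (mm9 chr16:4287678-4287737, minus strand) read 2.68, 3.44 and 3.34 with NEXN-WT and 3.52, 3.14 and 3.20 with NEXN-S437E. The highest and the lowest heart of the 6 were replicate 1 of NEXN-S437E and of NEXN-WT, and among the other 4 the NEXN-WT hearts were the higher ones. The difference was 0.13 ± 0.23 (SE; 95% interval -0.39 to 0.66, limma adjusted p = 0.773) and turned to -0.10 without NEXN-WT replicate 1. For *Adcy5*, *Adcy6* and *Adcy9* the intervals hold no 2-fold difference in either direction.

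The rest of the pathway was read through 133 further genes in 14 lists, of which 116 had a tested probe, and the brightest tested probe stood for each gene. At an unadjusted limma p below 0.05, 12 were higher and 4 lower with NEXN-S437E, against 10.1% and 7.91% of all 13747 tested genes. This balance depended on the scaling: 7 were higher and 8 lower both under quantile normalization and in the deposited values, 7 and 11 with the percentile over detected probes, and 12 and 10 under normexp correction. Past 2-fold as well, 1 was higher (*Ddc*) and none lower, against 0.771% and 2.15% of all genes. None passed the adjusted p, which 0.204% of genes did. The median difference of the 116 genes was 0.073, as over all tested genes (0.073). Without NEXN-WT replicate 1, 7 were higher and 4 lower, with a median of 0.018. The 5 genes that were then no longer higher at an unadjusted limma p below 0.05 were *Adcy1* (0.74), *Akap7* (0.32), *Akap1* (0.32), *Atp2a2* (0.29) and *Adk* (0.28), given with their differences without that array.

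Among the other receptors, few transcripts were bright enough to test. Among adrenergic receptors outside the members 2 were tested, and *Adra2b*, an inhibitory α2 receptor, was higher in every NEXN-S437E heart (-0.47, -0.30 and -0.71, against -1.26, -0.90 and -1.01). Its difference was 0.57 ± 0.17 (SE; limma p unadjusted 0.0106 and adjusted 0.192), and that of *Adra2c* was 0.082 (-0.051 without NEXN-WT replicate 1). *Adrb3*, *Adra1d* and *Adra2a* were too dim to be tested. Of the adenosine receptors, *Adora2a* differed by 0.039 (-0.13 without NEXN-WT replicate 1) and *Adora3* was not tested.

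Of 6 other cyclases 2 were tested. *Adcy1*, a calcium-stimulated isoform best known from neurons, read -2.65, -2.82 and -1.68 with NEXN-WT and -1.13, -1.67 and -1.75 with NEXN-S437E. The groups overlapped, and the difference was 0.87 ± 0.31 (SE; limma p unadjusted 0.0248 and adjusted 0.236). *Adcy4* differed by 0.054, and by -0.097 without NEXN-WT replicate 1.

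Between receptor and enzyme, all 18 G protein subunits were tested and 1 was lower by unadjusted limma p, though not by 2-fold. *Gnao1*, the α subunit of Go, read 1.00, 0.75 and 0.56 with NEXN-WT and 0.21, -0.21 and 0.15 with NEXN-S437E, a difference of -0.72 ± 0.18 (SE; limma p unadjusted 0.00424 and adjusted 0.147). *Gng7*, a γ subunit, had the next smallest p, with a difference of 0.66 and overlapping groups. Of 6 tested receptor kinases and arrestins, which switch off occupied receptors, 1 was lower by the same p alone: *Grk5* at 0.98, 1.24 and 1.09 with NEXN-S437E against 1.79, 1.43 and 1.52. Its difference was -0.48 ± 0.16 (SE; limma p unadjusted 0.0174 and adjusted 0.217). *Arrb2* and *Arrb1*, the β-arrestins, differed by -0.34 and -0.27 with overlapping groups, and *Arrb2* by -0.18 without NEXN-WT replicate 1.

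Downstream of cAMP, none of the 16 tested effectors passed an unadjusted limma p of 0.05 at its brightest probe, with differences of 0.49 for *Popdc2*, a cAMP-binding membrane protein, and 0.34 for *Prkar2a*, a regulatory subunit of protein kinase A. These were 0.21 and 0.18 without NEXN-WT replicate 1. The brightest *Prkaca* probe differed by 0.25, and a dimmer one by 0.56 with an unadjusted limma p of 0.0216. Without NEXN-WT replicate 1 these *Prkaca* differences were 0.068 and 0.39. Of 10 anchoring proteins that hold protein kinase A in place, 2 were higher by unadjusted limma p: *Akap7* by 0.42 and *Akap1* by 0.37. Of 15 tested phosphodiesterases, which break down cyclic nucleotides, 1 was higher and 1 lower by unadjusted limma p. *Pde4d*, a cAMP-specific enzyme, was -0.99, -0.31 and -0.63 with NEXN-WT and -0.01, -0.11 and 0.19 with NEXN-S437E, a difference of 0.67 ± 0.20 (SE; limma p unadjusted 0.0101 and adjusted 0.191). *Pde1a*, a calmodulin-stimulated enzyme, differed by -0.63 at its brightest probe, by -1.01 at a second, which passed 2-fold, and by -0.0074 at the last, so its probes disagree. Without NEXN-WT replicate 1 these differences were -0.39, -0.65 and -0.015.

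Of 13 tested genes in the list of protein kinase A targets in the cardiomyocyte and their partners, 2 were higher by unadjusted limma p. These were *Tnni3*, cardiac troponin I, by 0.60 (0.33 without NEXN-WT replicate 1) and *Atp2a2*, the calcium pump SERCA2, a partner of such a target, by 0.42. In the deposited values these differences were 0.20 and 0.18, and neither passed. The median of this list was 0.36, and 0.18 without NEXN-WT replicate 1 and 0.10 in the deposited values. It shares 3 genes (*Tnni3*, *Pln* and *Ryr2*) with the cardiomyocyte markers, of which 3 of 8 were higher with a median of 0.42, but 0 of 8 in the deposited values with a median of 0.18. The part of the cardiomyocyte share in this difference was not tested. *Cacnb2*, also in the list of targets, differed by 0.36 at its brightest probe and by 0.93 at each of its other tested probes. The unadjusted limma p was 0.234 at the brightest and 0.00529 and 0.0214 at the others. Without NEXN-WT replicate 1 the differences were 0.17, 1.20 and 0.80. The 7 phosphatases, which reverse the phosphorylation, held none with an unadjusted limma p below 0.05, and *Ppp1cb* and *Ppp1ca* differed by 0.23 and 0.22 (*Ppp1ca* by 0.12 without NEXN-WT replicate 1).

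In the branch that the α1 receptors use, 1 of 10 genes was lower by unadjusted limma p, though not by 2-fold. *Prkca*, protein kinase C α, read 2.00, 1.60 and 1.46 with NEXN-WT and 1.00, 0.96 and 1.29 with NEXN-S437E, a difference of -0.60 ± 0.19 (SE; limma p unadjusted 0.0125 and adjusted 0.198). A second *Prkca* probe differed by 0.034 with overlapping groups, so the probes of this gene disagree. *Prkcd*, protein kinase C δ, differed by -0.33 at its brightest probe and by -0.42 and -0.45 at its other tested probes. The unadjusted limma p was 0.0550 at the brightest and 0.0331 and 0.0121 at the others. Without NEXN-WT replicate 1 the differences were -0.24, -0.31 and -0.40.

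On the adenosine side, 1 of 7 tested genes of adenosine handling was higher by unadjusted limma p, namely *Adk*, adenosine kinase, by 0.48, while *Ada*, adenosine deaminase, differed by -0.57 with overlapping groups (-0.33 without NEXN-WT replicate 1). *Kcnj3* encodes GIRK1, a subunit of the potassium channel that A1 and muscarinic receptors open through G protein βγ subunits. Its brighter probe read -1.96, -1.95 and -1.73 with NEXN-WT and -1.14, -1.25 and -0.83 with NEXN-S437E, with no overlap. The difference was 0.80 ± 0.17 (SE; limma p unadjusted 0.00128 and adjusted 0.111) and 0.76 without NEXN-WT replicate 1. A second *Kcnj3* probe stood clear of background in 1 NEXN-WT heart and in all 3 NEXN-S437E hearts, so the size of its difference is uncertain. The channel is best known from atrium and sinus node. Of 6 atrial markers 3 were tested and were lower with NEXN-S437E at an unadjusted limma p below 0.05. Their differences were -1.39 for *Nppa*, which ventricles under load also express, -0.62 for *Myl4* and -3.34 for *Dkk3*. They were -1.36, -0.43 and -2.71 without NEXN-WT replicate 1, and *Myl4* no longer passed. Over all 6 arrays *Nppa* also passed the adjusted limma p (0.0254), and *Myl4* and *Dkk3* did not. *Myl7*, *Sln* and *Bmp10* were too dim to be tested. *Kcnj5*, the partner subunit, differed by 0.48, and by 0.07 without NEXN-WT replicate 1.

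Of 7 tested genes of catecholamine synthesis and breakdown 3 were higher by unadjusted limma p. *Ddc*, which makes dopamine from L-DOPA, read -0.70, 0.0049 and 0.93 with NEXN-WT and 1.21, 1.00 and 1.56 with NEXN-S437E. Its difference was 1.18 ± 0.38 (SE; limma p unadjusted 0.0141 and adjusted 0.204), and 0.79, no longer 2-fold, without NEXN-WT replicate 1. *Maob*, a monoamine oxidase, was higher by 0.59 and *Slc22a3*, a transporter that takes up catecholamines, by 0.94 (0.44 without NEXN-WT replicate 1). Among markers of sympathetic neurons 2 were tested, *Th* and *Dbh*, with differences of 0.35 and 0.21 and limma adjusted p-values of 0.387 and 0.752. These differences were 0.17 and -0.17 without NEXN-WT replicate 1. *Prph* and *Npy* did not rise well above background in any heart.

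**Figure D4:**
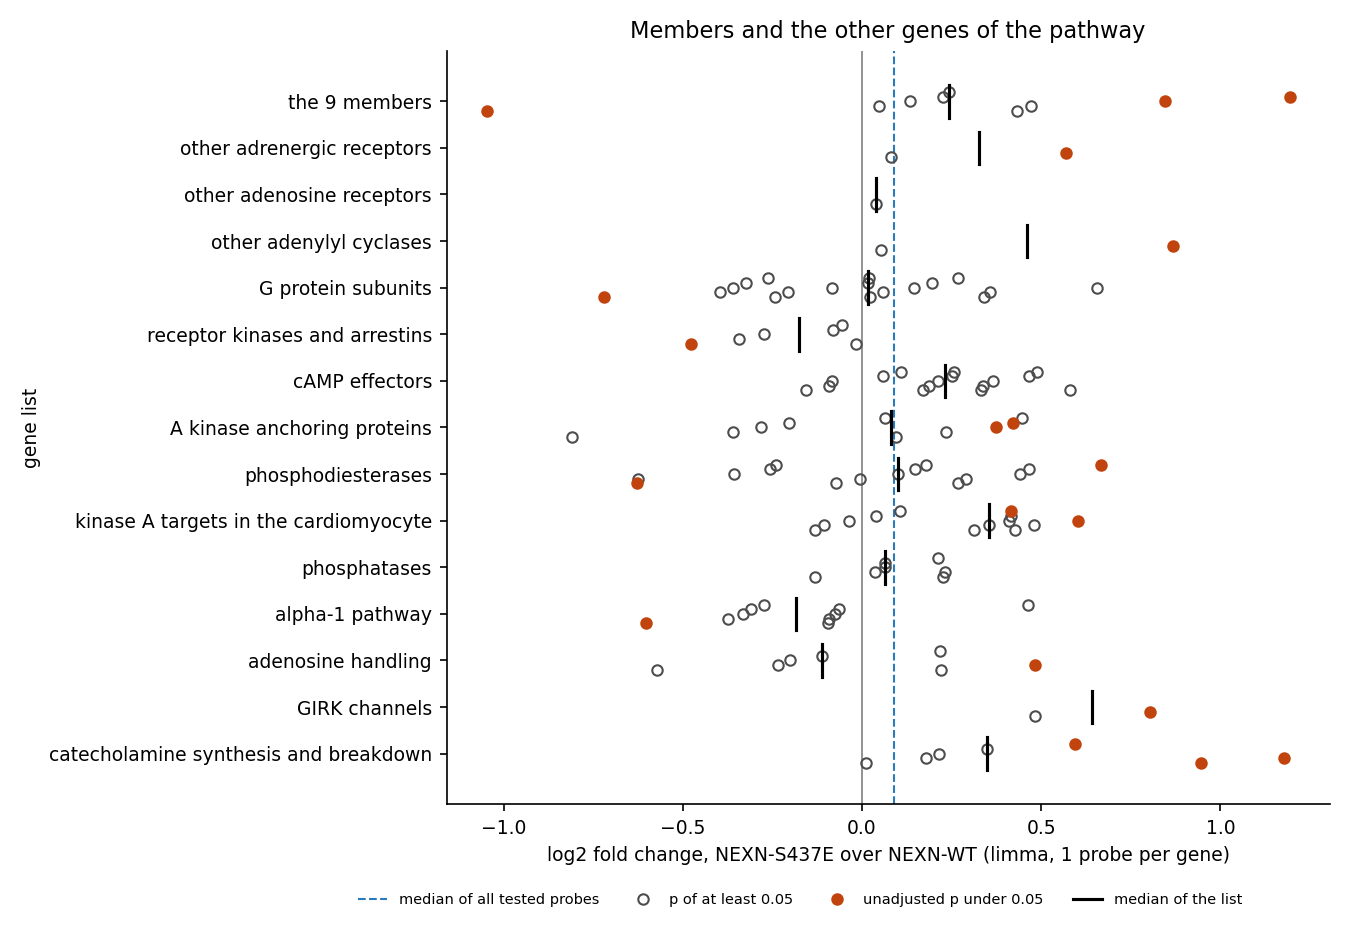
Difference between the groups (log2, horizontal axis) for the 9 members and for the 116 tested genes of the 14 pathway lists, 1 point per gene; filled points have an unadjusted limma p below 0.05, a black bar marks the median of each list and the dashed line the median of all tested probes, 0.088. The members at either end are *Adora2b* at 1.19 and *Adcy7* at -1.05, and the pathway genes lie between -0.81 and 1.18.

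Genes whose values over the 6 arrays ran most like a member's were found after each probe was centred on its own mean. For *Adora2b* they were *Arrdc2*, an α-arrestin, *Phactr3* and *Fbp2*, a muscle fructose bisphosphatase, with mean absolute differences from it of 0.13, 0.16 and 0.18 on the log2 scale. For *Adcy7* they were *C1qtnf5*, *Emp1* and *Dsel*, at 0.057, 0.061 and 0.071. For *Adra1a* they were *Lpin1*, *Ybx2* and *Tm6sf2*, at 0.10, 0.11 and 0.11. *Adra1b* ran most like *BC037032*, *Pde4a* and *Acsl1*, of which *Pde4a* is itself a cAMP phosphodiesterase. *Adrb1* ran most like *Mrgbp*, *Gm16793* and *Sod2*, and *Adora1* most like *Gtpbp6*, *Gm14296* and *Gfer*. For the remaining cyclases the nearest were *Kbtbd3*, *Ptcd1* and *2010111I01Rik* (*Adcy5*), *Mon1a*, *Dohh* and *Nomo1* (*Adcy6*), and *Plekhh3*, *Cdc42ep2* and *Aste1* (*Adcy9*), the closest of all being *Mon1a* at 0.012. The *Adora2b* profile was thus matched less closely than those of *Adcy7* and *Adra1a*.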

How the data were processed

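Hearts were compared on 1-colour Agilent arrays, 3 per group by their labels, all on 1 slide and read in 1 scan. The authors extracted the arrays with Agilent Feature Extraction 10.7.1.1, and deposited background-subtracted intensity values for each array. They also deposited a series table of normalized log2 values whose 6 columns have identical distributions; the method is not given in the sources used here. Coordinates are those of the array annotation (mm9).

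Control and outlier spots were left out (no member spot was an outlier), log2 intensity was centred on the 75th percentile of each array, and spots of a probe were averaged. A probe was tested if it stood well above background in all 3 hearts of either group, and the groups were compared by limma 3.58.1 in R 4.3.3 with jsonlite 2.0.0 and data.table (version 1.17.8). The fit was tested on simulated data. No spot was saturated, and 41.9% to 47.8% of spots were well above background. Intensities give no counts, so the number of arrays limits precision. The labels do not say more of how hearts were obtained, so p-values measure the spread between these samples.

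All members were named with every probe. Of the pathway lists, genes with a probe past 2-fold and unadjusted p, or past the adjusted p, were named, with the 2 smallest p of each list. The 3 genes most like a member were taken by mean absolute difference. Members and lists were chosen with earlier results of these data known. Alternatives covered normalization, background, filters, outliers, tests, blocks and left-out arrays. Plots used matplotlib 3.10.9 with pandas 2.3.3 and numpy 2.4.6 in Python 3.11.15.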

Additional observations from a re-analysis of the deposited data

How the results depend on the processing

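No member passed the adjusted p under any of 19 alternatives. Over the 8 members well above background on all 6 arrays, the count of 2 past 2-fold and unadjusted p became 1 under normexp correction, under the methods' t-test and with slide row as a block, 0 under array weights, and 1 to 2 when single arrays were left out (1 to 3 with *Adra1a*). The same 2 members past the unadjusted p alone became 1 under the methods' t-test and with slide row as a block, and 2 to 3 with arrays left out. With the methods' t-test, *Adora2b* was the member past the threshold and none passed after Benjamini-Hochberg adjustment. The 16 pathway genes became 10 without NEXN-S437E replicate 3 and 28 without NEXN-WT replicate 3, the lowest and highest of the left-out arrays, and 24 when the probe with the smallest p stood for each gene. With slide row as a block 5 of 13 were higher and 8 lower.

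*Adora2b* was higher with an unadjusted limma or t-test p below 0.05 in 19 of 19 alternatives, from 0.51 to 1.56, and past 2-fold in 17. *Adcy7* was lower in all 19, from -1.28 to -0.66, and past both thresholds in 14. *Adcy5* turned to -0.065 with the percentile over detected probes and to -0.31 with slide row as a block, and ran from -0.15 to 0.22 with arrays left out. *Adcy9* turned to -0.13 under array weights and ran from -0.10 to 0.28 with arrays left out. The causes were not tested. The percentile over detected probes moved the median of all tested probes from 0.088 to -0.023. The replicate block left 2 members past 2-fold and unadjusted p, 0 past the adjusted p and 15 pathway genes past the unadjusted p, and since hearts with the same number did not deviate together (correlations of -0.15, -0.028 and -0.18) it was not used. Dim signal limits *Adora2b*, *Adra1a* and the 4 probes not tested.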
